A study of Homo sapiens with 3 samples.

Results

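The protein arginine methyltransferase (PRMT) family was followed across 3 arrays of HCT116, an established line of human colorectal carcinoma cells. Its members were taken as every non-control probe of the array that carried the name of PRMT1, PRMT2, PRMT3, CARM1, PRMT5, PRMT6, PRMT7, PRMT8 or PRMT9. This gave 14 probes on 23 spots for 9 genes, of 58201 probes on 60901 spots for 43317 gene names on the whole array. Per the labels, the cells carried a negative control (NC) or 1 of 2 knockdowns of PRMT1 (PRMT1-KD1 and PRMT1-KD2, here KD1 and KD2), made with small interfering RNAs and Lipofectamine 3000, and total RNA of each was read on 1 single-colour Agilent array. The time of harvest was not given in the labels, and each group was 1 array, so a difference between 2 arrays rests on no replicate and is given with no p-value. The labels give 2 siRNA sequences and do not say which one made KD1 and which KD2.

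PRMTs move methyl groups from S-adenosylmethionine onto arginines of histones, RNA-binding proteins and signalling proteins. They are sorted by the product they leave. Type I enzymes (PRMT1, PRMT2, PRMT3, CARM1, PRMT6 and PRMT8) make asymmetric dimethylarginine, type II enzymes (PRMT5 and PRMT9) make symmetric dimethylarginine, and the type III enzyme PRMT7 stops at monomethylarginine. PRMT1 is the main source of asymmetric dimethylarginine in most human cells, including the mark on arginine 3 of histone H4.

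The siRNAs are shown because the PRMT1 change rests on them, as they stand in the labels, 5′ to 3′.
PRMT1 siRNA-1: cugaaguccaggucgauggugaaguc
PRMT1 siRNA-2: uuguagucuuuguacugcc
PRMT1 was read by 1 probe, A_23_P39088, which lies in hg19 at chr19:50188248-50189362 on the plus strand. Its 60 bases spread over 1115 bases of the genome, so it joins sequence that is apart in the genome. Neither siRNA target lay within it, and at best 13 of the 26 bases of the siRNA-1 target strand lined up with it. A second probe, A_24_P366535, does not carry a family name and is annotated to the transcript ENST00000604252 at chr5:176692609-176692668 on the minus strand. It was included here as that of a pseudogene of PRMT1, which was not checked against genome or transcript sequences. It was the array's closest probe to siRNA-1: 23 of 26 bases of the target strand were identical (capitals below), and the next closest probe shared 19. The differing positions, counted from 1 at the 5′ end of the target strand and written with the target's base first, were G13A, G18A and C21T.
PRMT1 probe A_23_P39088: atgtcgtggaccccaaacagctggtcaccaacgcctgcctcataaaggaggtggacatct
probe A_24_P366535, the aligned bases in capitals: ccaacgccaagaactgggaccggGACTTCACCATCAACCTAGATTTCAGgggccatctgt
siRNA-1 target strand, bases identical to that probe in capitals: GACTTCACCATCgACCTgGAcTTCAG
For siRNA-2 the closest probes on the array shared 15 of 19 bases, and 7 probes did so.

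Of the 14 member probes, 13 were well above background on all 3 arrays, and none was saturated or marked as an outlier. The exception was PRMT8, a membrane-anchored type I enzyme known mainly from brain. Its probe A_23_P139740 (chr12:3702405-3702464) had a processed intensity of 3.61 (NC), 3.94 (KD1) and 3.51 (KD2), and it was not well above background on any array. The lowest signals called well above background there were 17.8, 19.2 and 17.4, so PRMT8 is given no change. The 3 arrays shared 1 slide and 1 scan, and 40.8 to 42.5% of probes were well above background. Of the epithelial and colorectal markers, EPCAM, CDH1, KRT8, KRT18, KRT19 and CDX2 were well above background on every array (6 of 8 genes), while VIL1 and KRT20 were not on any. PECAM1, CD3E and COL1A2 were below background on every array, PTPRC was above it for 1 of 5 probes on KD2 only, and COL1A1 was above it on all arrays.

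**Figure D1:**
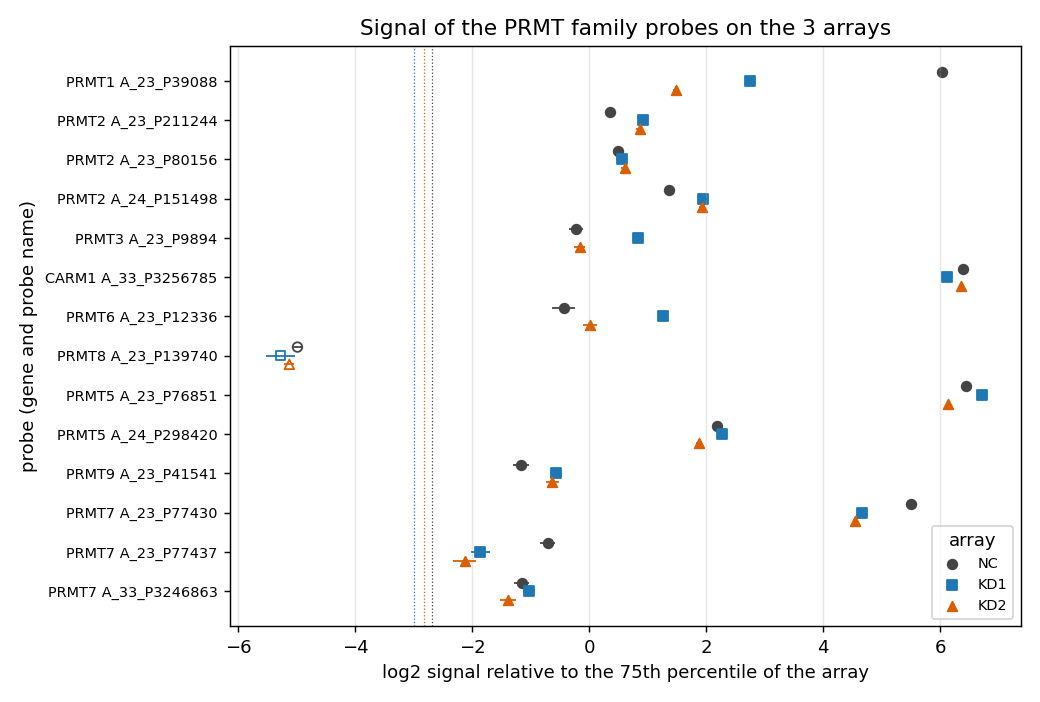
Log2 signal of the 14 PRMT family probes (rows) relative to the 75th percentile of each array, for NC (circles), KD1 (squares) and KD2 (triangles). Bars are the spot-to-spot SD of probes of like brightness (for PRMT6, of its own spots), open symbols were not well above background, dotted lines mark the lowest signal called above background on each array, and levels of different probes are not comparable. PRMT1 sits far right on NC and moves left on both knockdowns.

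To check the knockdown, the targeted gene was examined first. The PRMT1 probe had a processed intensity of 7522 on NC, 1029 on KD1 and 343 on KD2. After scaling, its log2 signals were 6.03 (NC), 2.75 (KD1) and 1.48 (KD2), so that both knockdowns lay below NC and KD2 lay below KD1. The signal in KD1 was 10.3% of NC, a log2 change of -3.28 with a spot error of 0.064, and in KD2 it was 4.26% of NC, a change of -4.55 with a spot error of 0.061. The spot error is the spread between spots of 1 array, from probes of like brightness that are spotted repeatedly, and it holds no variation between cultures. PRMT1 lay at rank 7 from the lowest of 25237 probes in KD1 and at rank 2 of 25470 in KD2. The probe of ENST00000604252, which aligns with the siRNA-1 target, fell from 6731 on NC to 680 on KD1 and 215 on KD2. With the siRNA-2 target strand it shared at best 9 of 19 bases, and the cause of its fall was not tested. Whether this probe also binds PRMT1 transcripts was not tested.

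A change was called where it passed 1.5-fold, the fold used in the methods of the study. Those methods also set a limit on the p-value, which was left out here because each group was 1 array. Of all probes with signal well above background on 1 or both arrays compared, 13.7% were lower in KD1 and 12.5% higher, and in KD2 10.2% were lower and 9.78% higher. Among the 13 measured member probes, 3 were lower and 3 higher in KD1, and 3 were lower and none higher in KD2. The split moved with the scaling, and so did that of all probes. With the arrays scaled to the spike-in controls, 1 member probe was lower and 9 higher in KD1, where 1.85% of all probes were lower and 49.0% higher, and 3 were lower and 4 higher in KD2, beside 3.51% and 22.9%. With the unscaled series matrix values, 2 were lower and 6 higher in KD1, beside 3.42% and 33.0%, and 3 were lower and 3 higher in KD2, beside 7.08% and 13.5%. With the percentile over detected probes, 3 were lower and 2 higher in each knockdown, beside 16.1% and 11.0% in KD1 and 8.48% and 11.5% in KD2. With PRMT1 left out, the median log2 change of the other 12 probes was 0.21 in KD1 and 0.01 in KD2, beside -0.06 and -0.04 over all probes. Both comparisons share the NC array, so a deviation of NC moves both in the same direction.

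**Figure D2:**
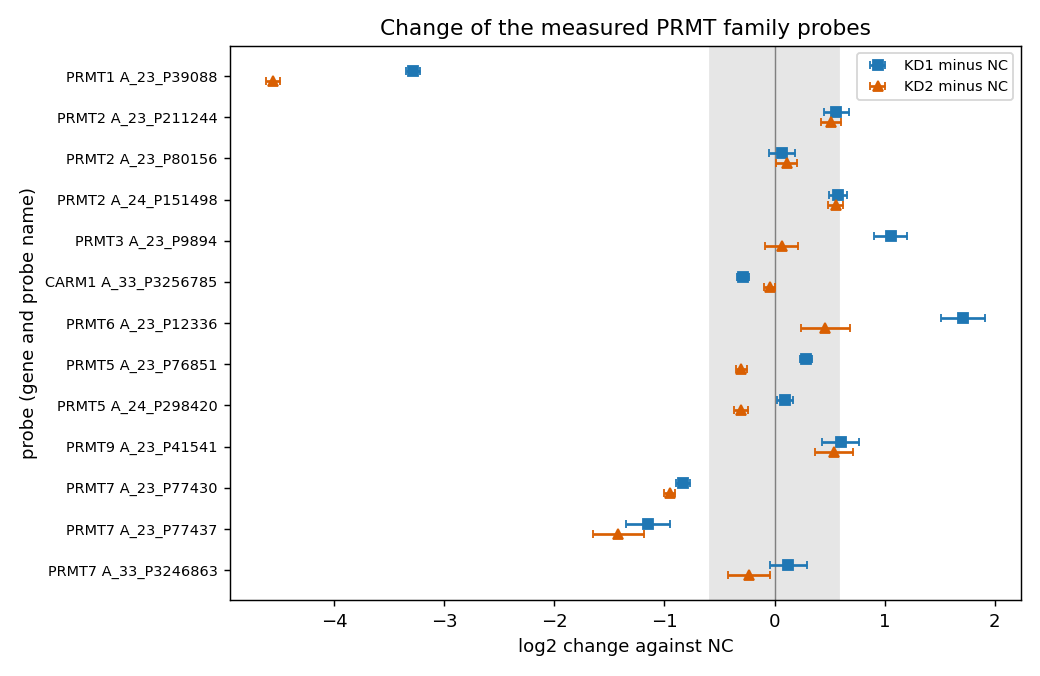
Log2 change against NC of the 13 measured PRMT family probes (rows), KD1 as squares and KD2 as triangles, with the spot error as bars and changes within 1.5-fold shaded. PRMT1 and the PRMT7 probes A_23_P77430 and A_23_P77437 lie left of the band in both knockdowns, and PRMT3, PRMT6 and, by a small margin, PRMT9 lie right of it in KD1 only at this scaling.

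The type I enzymes other than PRMT1 were then examined. PRMT6, a nuclear enzyme that methylates histone H3, has 1 probe that is spotted 10 times, A_23_P12336 at chr1:107601422-107601481. Averaged on the log2 scale it measured -0.44 ± 0.19 in NC, 1.27 ± 0.06 in KD1 and 0.02 ± 0.12 in KD2 (SD over 10 spots of 1 array). The lowest of the KD1 spots, 1.18, was above the highest NC spot, -0.16, and above the highest KD2 spot, 0.20, and the KD2 spots reached down to -0.19, below the highest NC spot. PRMT6 was therefore 3.27-fold higher in KD1 (log2 change 1.71, standard error over spots 0.063) and 1.38-fold higher in KD2 (0.46, standard error 0.071), and only the first passed 1.5-fold, although the second did so with spike-in scaling (0.75). Between the knockdowns it was 2.38-fold higher in KD1, a log2 difference of 1.25. The processed intensity of this probe on NC, 84.6, was near background, 2.22 times the local background. Its change in KD1 exceeded that of 99.5% of all probes measured.

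**Figure D3:**
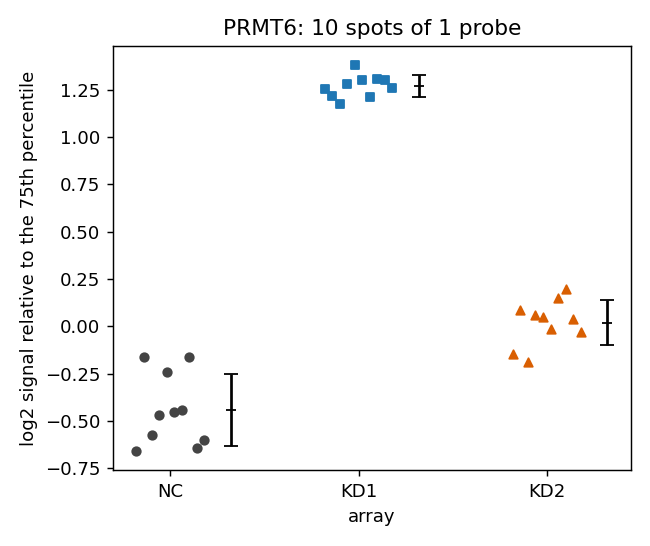
Log2 signal relative to the 75th percentile of the array for the 10 spots of the PRMT6 probe on NC, KD1 and KD2, with the mean and SD over spots in black beside each group. The KD1 spots lie above all spots of the other arrays, while the NC and KD2 ranges overlap.

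PRMT3, a cytosolic enzyme that methylates the ribosomal protein RPS2, was higher in KD1. Its probe A_23_P9894 (chr11:20529950-20530009) had an intensity of 98.3 on NC, 272 on KD1 and 110 on KD2, so that KD1 stood apart and KD2 stayed near NC. The change was 1.05 with a spot error of 0.15 in KD1 (2.08-fold higher) and 0.06 with a spot error of 0.15 in KD2 (1.05-fold). KD1 exceeded KD2 by 0.99 on the log2 scale. This probe too was dim, at 2.17 times the local background on NC.

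PRMT2, which also acts as a coactivator of nuclear receptors, was read by 3 probes, and they did not give 1 value. A_23_P211244 (chr21:48080822-48081718) had intensities of 147 (NC), 288 (KD1) and 224 (KD2), and A_24_P151498 (chr21:48064366-48068394) had 296, 588 and 466. These probes changed by 0.56 and 0.58 in KD1 and by 0.51 and 0.55 in KD2, just short of the 1.5-fold line at 0.585, so neither is called. A_24_P151498 was within 1.5-fold under 5 of 9 settings in each knockdown and past it, higher, under the rest. The 9 settings, here and below, include the main setting itself. They also include leaving out the floor on values below background, which changes no measured member, and keeping marked spots, which hardly moves them. They are therefore not 9 separate checks. A_23_P80156 (chr21:48078756-48078815) had 162, 226 and 187 and changed by 0.07 in KD1 and 0.11 in KD2, with spot errors of 0.12 and 0.09. The position of A_24_P151498 spans 4029 bases of the genome and that of A_23_P211244 spans 897, whereas A_23_P80156 lies in 1 block of 60 bases.

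CARM1, also called PRMT4, a coactivator enzyme that methylates histone H3, had a bright probe. Its probe A_33_P3256785 (chr19:11033280-11033339) had intensities of 9683 on NC, 10603 on KD1 and 10062 on KD2. After scaling the change was -0.28 in KD1 and -0.04 in KD2, with a spot error of 0.054 and 0.048. The sign in KD1 turned to 0.35 when the arrays were scaled to the spike-in controls and to 0.13 with the unscaled series matrix values.

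For the type II enzymes, PRMT5 is the main maker of symmetric dimethylarginine and PRMT9 acts on the splicing factor SF3B2. PRMT5 was read by 2 probes. A_23_P76851 (chr14:23390168-23390227, minus strand) had intensities of 9935 (NC), 16155 (KD1) and 8646 (KD2), and the dimmer A_24_P298420 (chr14:23393848-23393907) had 519, 740 and 451. In KD1 they changed by 0.29 and 0.10, and in KD2 by -0.30 for both. The change of A_23_P76851 therefore had opposite signs in the knockdowns, and KD1 exceeded KD2 by 0.59 on the log2 scale, barely past the threshold and past it under 6 of 9 settings, while for A_24_P298420 the difference was 0.40. The probe of the antisense transcript PRMT5-AS1 (chr14:23390264-23390323, plus strand) was not well above background on any array. PRMT9 (A_23_P41541, chr4:148560162-148560221, minus strand) had intensities of 51.1, 103 and 79.5 on NC, KD1 and KD2. It was 1.52-fold higher in KD1 (0.60, spot error 0.17) and 1.45-fold higher in KD2 (0.54, spot error 0.17), and so lay on both sides of the threshold while the changes differed by 0.06. The KD1 change was past 1.5-fold under 7 of 9 settings, not with normexp (0.30) or the percentile over detected probes (0.55), and the KD2 change was within it under 6 of 9. On NC its signal was 1.56 times the local background.

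PRMT7, the type III enzyme, was the only member besides PRMT1 with probes called lower in both knockdowns, although with spike-in scaling none of its probes was called lower in KD1. The bright probe A_23_P77430 and the dim probe A_23_P77437 are shown because they fell together, while the third probe did not.
PRMT7 probe A_23_P77430: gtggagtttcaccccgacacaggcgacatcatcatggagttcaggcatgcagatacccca
PRMT7 probe A_23_P77437: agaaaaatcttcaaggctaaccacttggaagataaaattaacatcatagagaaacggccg
A_23_P77430 (chr16:68391062-68391121) had intensities of 5180 on NC, 3880 on KD1 and 2872 on KD2. It was at 56.2% of NC in KD1 (-0.83, spot error 0.060) and at 51.7% in KD2 (-0.95, spot error 0.050). The probe at chr16:68381576-68382298, A_23_P77437, had 70.0, 42.1 and 28.1 and changed by -1.15 in KD1 and -1.42 in KD2, with spot errors of 0.20 and 0.23. On KD2 its signal was 1.34 times the local background, so this value rests on little signal, and with normexp background correction the changes were -0.57 and -0.47, within 1.5-fold, as was its KD1 change with spike-in scaling (-0.51). The third probe, A_33_P3246863 (chr16:68386456-68386515), is annotated to another transcript of PRMT7, ENST00000565356. It had 51.4, 74.7 and 46.9 and changed by 0.12 and -0.23. Its signal was 1.55 (NC), 1.78 (KD1) and 1.30 (KD2) times the local background, so these values too rest on little signal. Under the unscaled values and the spike-in scaling, the KD1 change of A_23_P77430 was within 1.5-fold (-0.42 and -0.20), while its KD2 change remained past the threshold under every setting.

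The knockdowns were also set against each other. Over all probes, 9.65% were lower and 8.88% higher in KD1 than in KD2. Of the 13 member probes none was lower and 4 were higher, namely those of PRMT1, PRMT3 and PRMT6 and A_23_P76851 of PRMT5. PRMT1 was 2.41-fold higher in KD1 than in KD2 (log2 difference 1.27), and 11 of the 13 probes lay above 0, with a median of 0.27 beside -0.01 over all probes. Without the targeted PRMT1, 10 of 12 lay above 0, with a median of 0.19. The signs moved with the scaling. With the percentile over detected probes (median of all probes -0.11), the probes of CARM1, PRMT2 and PRMT9 lay below 0. With spike-in scaling (median of all probes 0.33), every measured member probe lay above 0.

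**Figure D4:**
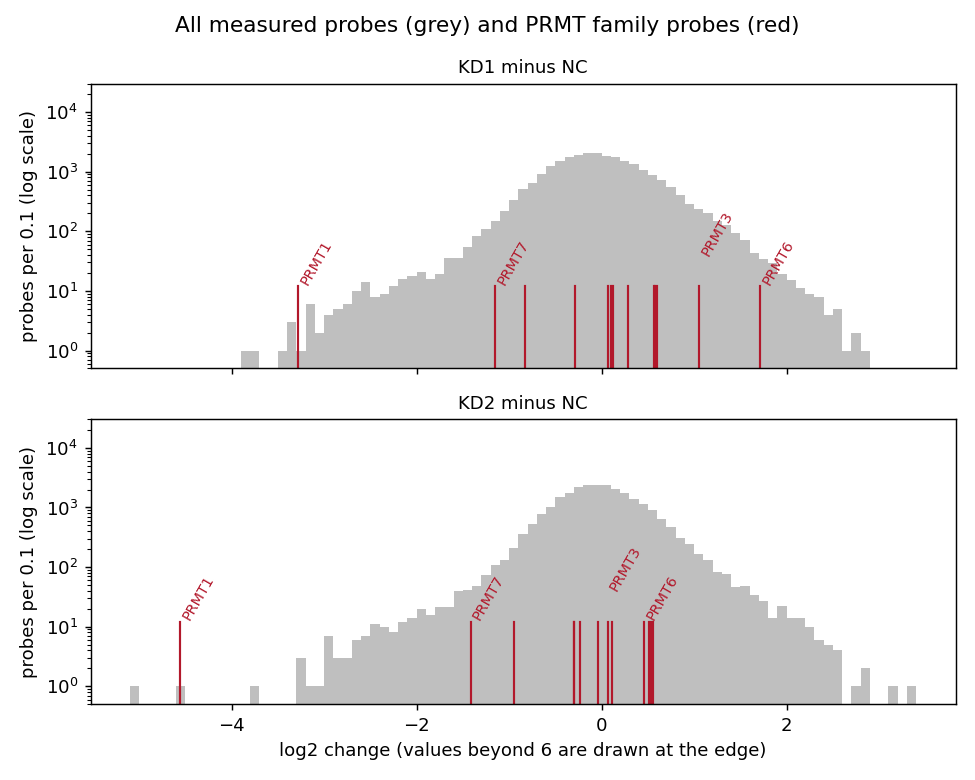
Number of probes per 0.1 of log2 change (log scale) for all probes with signal well above background on 1 or both arrays compared, with the PRMT family probes as red lines, KD1 above and KD2 below. PRMT1 lies in the far left tail in both, PRMT6 and PRMT3 lie in the right part in KD1 and inside the bulk in KD2.

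To use both knockdowns together, limma was fitted with KD1 and KD2 as 2 replicates against the lone NC array, over 26321 probes. The fit assumes that NC varies like the knockdowns and that KD1 and KD2 are samples of the same state. Yet KD1 and KD2 are different knockdowns with 1 array each, and 18.5% of all probes were past 1.5-fold between them. PRMT1 itself was 2.41-fold and PRMT6 2.38-fold higher in KD1 than in KD2. The p-values of the fit are therefore not those of replicate cultures of 1 condition. After Benjamini-Hochberg adjustment 0% of probes (0 of 26321) passed an adjusted p of 0.05, and 1732 had an unadjusted p under 0.05. PRMT1 had a mean change of -3.92 ± 0.62 (SE, limma adjusted p = 0.250), and the smallest adjusted p of any probe was 0.0667. For PRMT7 the limma adjusted p was 0.748 (A_23_P77430, mean -0.89) and 0.590 (A_23_P77437, mean -1.28), and for PRMT6 it was 0.748 (mean 1.08). The other 9 member probes had adjusted p-values between 0.748 and 0.998.

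The genes around the family were examined in fixed lists, whose counts stand beside the shares of all probes given above and have no test. Among partners and inhibitors of the enzymes, such as WDR77, the obligate partner of PRMT5, and BTG1 and BTG2, which bind PRMT1, 5 of 13 measured probes were higher and none lower in KD1, and 1 was higher and 2 lower in KD2. SF3B2, a substrate of PRMT9, was higher in both (0.69 and 0.59), but barely past 1.5-fold in KD2 (1.501-fold). Among readers of methylated arginine, 1 of 9 probes was lower and 1 higher in KD1, and 2 were lower and 2 higher in KD2. The Tudor-domain protein TDRD3, which binds asymmetric dimethylarginine, was lower in both for A_32_P187617 (-0.67 and -0.76), with its other probe below background. A_32_P187617 was dim, with a log2 signal of -1.25 on NC and -2.01 on KD2, where the lowest signal called above background was -2.82. SMNDC1, a splicing factor with a Tudor domain, was higher in both for A_23_P127233 (0.75 and 0.59), barely past 1.5-fold in KD2. Its other probe, A_33_P3219429, was past 1.5-fold in KD2 only (0.31 and 0.78).

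In the methyl donor cycle, which makes S-adenosylmethionine, 3 of 17 probes were lower and 1 higher in KD1, and 3 of 16 were lower and none higher in KD2. MAT1A, the liver form of the enzyme that makes S-adenosylmethionine, was well above background on NC only. Its log2 signal there was -2.18, near the lowest signal called well above background on NC, -2.69. Against the lowest such signal of each knockdown array it was 1.76-fold lower in KD1 and 1.56-fold lower in KD2. These bounds hold for this scaling only and rest on little signal. In the list for arginine deimination and methylarginine breakdown, 2 of 4 measured probes were higher in KD1 and 2 in KD2, and none was lower. DDAH1, which breaks down free asymmetric dimethylarginine, rose in both (1.29 and 0.80), while its other probe was below background. Neither arginine methyltransferase outside the family, NDUFAF7 or METTL23, had a probe past 1.5-fold against NC, but both METTL23 probes lay just short of it in KD2 (-0.58 for each, against -0.26 and 0.19 in KD1). Of the markers, CDH1 was higher in both (0.94 and 0.76) and 1 of 2 probes of KRT18 was lower in both (-0.63 and -0.68).

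As the named genes with the pattern most like that of PRMT1 over the 22280 probes above background on all 3 arrays, USP25, METTL10, TTI2, ORC3 and IL1RN were nearest by Euclidean distance in the pair of log2 changes. USP25 was the nearest of them, at -1.83 and -2.76 and a distance of 2.30. The other 4 lay between 2.76 and 2.96, so no named gene lay close to PRMT1. The probe of ENST00000604252 lay at a distance of 0.68.

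**Figure D5:**
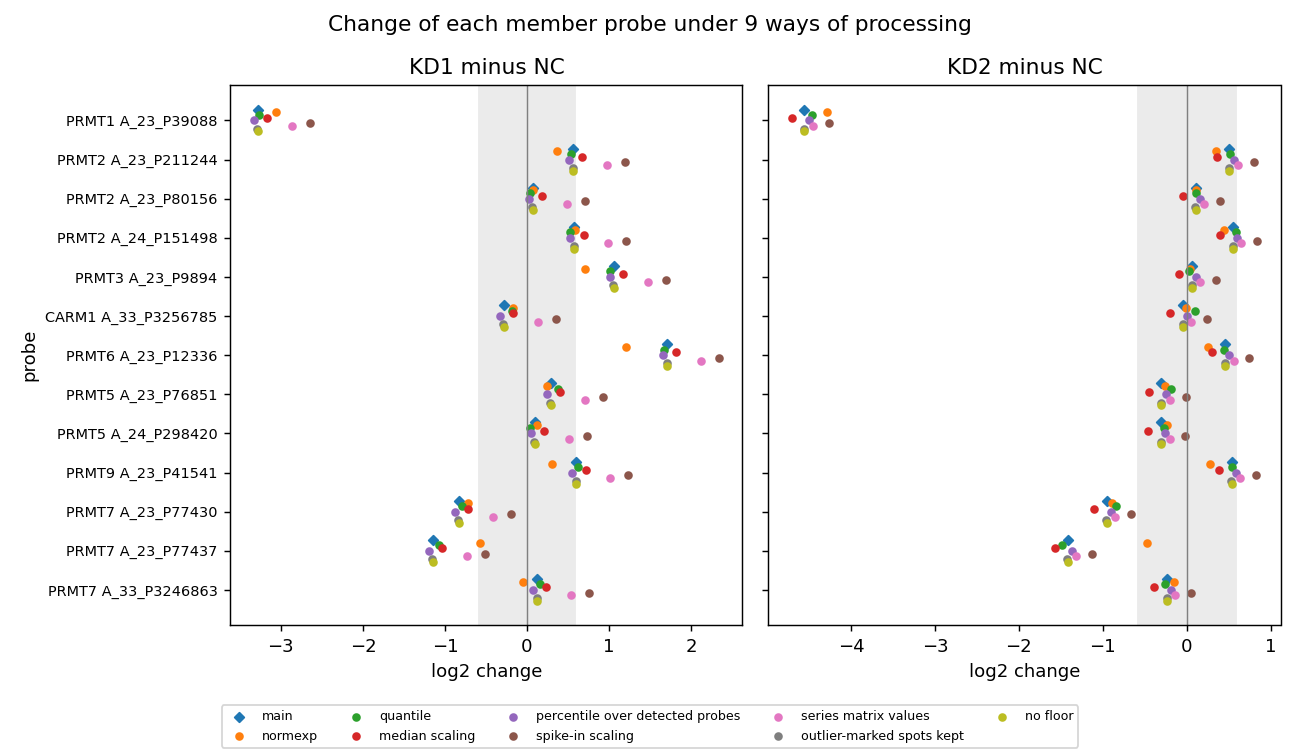
Log2 change against NC of each measured member probe (rows) under 9 ways of processing, KD1 left and KD2 right, with the main setting as diamonds and changes within 1.5-fold shaded. The PRMT1 points stay left of the band in both panels, and the spike-in and series matrix points shift all probes of KD1 to the right.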

How the data were processed

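The authors deposited scanner output of 3 single-colour arrays, in which Agilent Feature Extraction 10.7.1.1 had given each spot a background-corrected processed intensity. Per the file headers this intensity was not scaled between arrays, and the deposited series matrix holds the same values averaged per probe. Probe positions refer to hg19. The RNA was HCT116 total RNA labelled with Cy3. The study describes a second control and SMARCA4 knockdowns, which were not analysed here.

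Control spots and spots marked as outliers were left out (130 probes lost, 58071 usable). Spots of a probe were averaged as log2 values and the 75th percentile of each array was subtracted. Values below background were raised to the lowest signal well above background on that array before log2 changes were taken. Spot errors are the median SD of probes that are spotted repeatedly, within 1 log2 unit of brightness. Of 300 such probes, a member's error on an array rested on 4 (A_23_P77437 on KD1) to 106 (PRMT1 on KD1), and fewest for dim probes. PRMT6 used its own spots. This error stands in place of that of the extraction software, which was near 10% for bright members. Calls needed a fold of 1.5. The fit was run in R 4.3.3 with limma 3.58.1. The code for counting and fit was run on simulated data. For the fit, every probe had the same small spread, less than that between the knockdowns (robust SD of KD1 minus KD2, 0.38). That run therefore cannot show how the fit performs on these arrays. The members, lists and rules were chosen with earlier results of these data known; every member probe is reported. Listed genes are named if past 1.5-fold in both knockdowns in the same or opposite directions. Alternatives were normexp (offset 50), quantile, median, detected-probe percentile and spike-in scaling (8 controls), series matrix values, marked spots kept, no floor, other filters and a fold of 2. With single arrays, precision is limited by the number of arrays.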

Additional observations from a re-analysis of the deposited data

Results flagged for a closer look

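PRMT5 probe A_23_P76851 changed in opposite directions in the knockdowns, by 0.29 in KD1 and -0.30 in KD2 against NC on the log2 scale, and the difference was not tested because each knockdown was 1 array. Neither change passed 1.5-fold. With spike-in scaling the KD2 change was -0.01.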

How the results depend on the processing

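PRMT1 was lower under every setting tried. Its change was -3.06 in KD1 and -4.28 in KD2 with normexp, -3.17 and -4.71 with median scaling, -2.65 and -4.27 with spike-in scaling and -2.87 and -4.45 with the series matrix values, and -4.47 in KD2 with quantile normalization. The median over all measured probes shifted to 0.57 in KD1 and 0.25 in KD2 with spike-in scaling, 0.35 in KD1 with the series matrix values, -0.19 in KD2 with median scaling and -0.11 in KD1 with the percentile over detected probes; changes relative to that median differ little, since these settings move each array by nearly 1 constant. Of the 13 measured member probes, those past 1.5-fold with spike-in scaling numbered 10 in KD1, 7 in KD2 and 7 between the knockdowns, where 50.8%, 26.4% and 29.9% of all probes were past it. In KD2 they numbered 6 with the series matrix values (20.6% of all probes) and 5 with the percentile over detected probes (20.0%). Between the knockdowns 2 were past a fold of 2 (4.65%). The limma fit called 286 probes with normexp, 228 with median scaling, 392 with spike-in scaling, 355 with the series matrix values and 18 over probes above background on all arrays, and none with the other settings; PRMT1 was called with spike-in scaling, the series matrix values and the fit over probes above background on all arrays (limma adjusted p = 0.009398, 0.01001 and 0.0005273) and with normexp, and no other member was. With normexp every member had the same standard error (0.29), a spread pooled over probes and not one of its own, so its p-values are not given. The causes were not tested. Over 296 other member values under alternatives, 257 kept their call and 39 did not, and no called change changed sign. These include the values with no floor, which equal the main ones because every measured member was above background. They also include those with marked spots kept, which hardly differ because no member spot was marked. Such values had little or no room to change their call, so the 257 overstates the agreement. Leaving out a knockdown leaves the fit no residual degrees of freedom, so it was not run. No paired analysis was possible because each group was 1 array.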
